A study of Mus musculus with 6 samples.

Results

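Methylation of CpG sites was followed at the promoters of 8 mouse genes that belong to maternally methylated imprints or lie beside one. The genes are Mest and its neighbour Copg2, Peg3 and Usp29, Plagl1, Peg10 and Sgce, and Impact. They were taken by name from the GENCODE M21 annotation of GRCm38. Their annotated transcripts gave 26 starts after starts within 500 bp of each other were joined, out of the starts of 21733 genes used in the fits. Windows of 500 bp reaching 5 kb to each side of these starts gave 356 windows, of 434756 such windows at all genes. The 6 whole-genome bisulfite libraries covered 3 pluripotent states at 2 libraries per state. The state called advanced pluripotency (ASCs) was represented by lines that the study derived from blastocysts in 2 steps. Cells were first grown with Activin A and bFGF, and then moved to a medium with Activin A, BMP4, CHIR99021 and LIF. Colonies positive for a reporter that appeared in the second medium were picked and expanded. Embryonic stem cells (ESCs) were grown in 2i/LIF, which holds them in the naive state, while the epiblast-derived stem cells (EpiSCs) hold the later, primed state of the implanted embryo. All libraries carry the labels wild type and 129S2/SvPasCrl, and the study describes the lines as female. Its methods, however, describe blastocysts from crosses of 129/sv females with transgenic reporter males of mixed background. Which cross gave the sequenced lines is not stated there. The labels number 2 biological replicates per state without saying whether they were separate lines, so p-values measure the spread between these libraries, which may be technical.

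A maternal germline imprint is a CpG-rich region that is methylated in the oocyte and not in sperm. After fertilization this difference is kept in somatic cells, where the maternal copy stays methylated and silent and the paternal copy stays free of methylation and active. A cell with a normal imprint therefore shows about equal numbers of methylated and unmethylated reads over the region. The zinc finger protein ZFP57 binds the methylated hexamer TGCCGC and recruits TRIM28 and the histone methyltransferase SETDB1, which protect the mark while the rest of the genome is remodelled. Mest encodes a protein of the alpha/beta hydrolase fold family made in mesoderm. Peg3 encodes a zinc finger protein and shares a divergent promoter with Usp29, which encodes a ubiquitin-specific protease. Plagl1, also called Zac1, encodes a zinc finger transcription factor. Peg10 derives from a retrotransposon and is needed for the placenta, and it shares a divergent promoter with Sgce, the gene of epsilon-sarcoglycan. Impact encodes an inhibitor of the kinase GCN2, and Copg2 encodes a coat protein subunit and ends beside the end of Mest. The tables hold reads without an allele, so a level near 50% could not be divided into a maternal and a paternal copy.

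The sequences below show 300 bases from each of the 3 imprinted promoters with the highest ASC levels. Each is the stretch of 300 bases with the most TGCCGC hexamers within the region that was half-methylated in EpiSCs, read from the plus strand of the GRCm38 reference. Capitals mark TGCCGC on the plus strand and its complement GCGGCA, which is the same hexamer on the minus strand. The Mest sequence lies at chr6:30738084-30738383, the Peg3/Usp29 sequence at chr7:6729440-6729739 and the Plagl1 sequence at chr10:13091011-13091310.
Mest: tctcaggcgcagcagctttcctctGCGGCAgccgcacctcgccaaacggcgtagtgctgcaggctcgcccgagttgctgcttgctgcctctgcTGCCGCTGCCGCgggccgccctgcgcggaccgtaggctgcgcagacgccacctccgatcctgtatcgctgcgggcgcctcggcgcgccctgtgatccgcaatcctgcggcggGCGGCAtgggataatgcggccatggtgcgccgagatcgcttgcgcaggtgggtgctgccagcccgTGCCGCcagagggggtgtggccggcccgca
Peg3/Usp29: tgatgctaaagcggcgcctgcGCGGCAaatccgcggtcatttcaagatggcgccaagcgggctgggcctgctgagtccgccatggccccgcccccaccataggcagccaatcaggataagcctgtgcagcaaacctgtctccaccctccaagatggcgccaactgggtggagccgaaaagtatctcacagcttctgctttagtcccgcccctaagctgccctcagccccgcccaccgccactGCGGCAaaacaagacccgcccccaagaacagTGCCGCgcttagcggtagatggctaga
Plagl1: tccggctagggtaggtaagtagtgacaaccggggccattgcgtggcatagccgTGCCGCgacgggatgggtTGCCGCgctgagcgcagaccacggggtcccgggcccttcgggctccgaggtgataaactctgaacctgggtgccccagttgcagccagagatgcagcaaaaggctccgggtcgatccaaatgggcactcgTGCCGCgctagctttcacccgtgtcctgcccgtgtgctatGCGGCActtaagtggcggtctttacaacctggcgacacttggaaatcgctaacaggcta

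The printed Mest sequence holds 5 hexamers, the Plagl1 sequence 4 and the Peg3/Usp29 sequence 3. These stretches were picked for their hexamers, so the counts are a description. Methylation in the Mest sequence, over 37 CpG sites, was 54.7% and 22.3% in the ASC libraries, 0% and 0.433% in the ESC libraries and 51.7% and 49.3% in the EpiSC libraries. The Peg3/Usp29 sequence, with 20 CpG sites, stood at 36.0% and 45.4% in ASCs and at 37.5% and 61.4% in EpiSCs, while neither ESC library showed a methylated read. Over the 25 CpG sites of the Plagl1 sequence ESCs had levels of 0.472% and 0%, ASCs of 38.1% and 43.2% and EpiSCs of 45.1% and 28.8%. An observation is 1 read over 1 CpG site. The 3 sequences rest on between 38 and 300 observations per library, and a library without a methylated observation could still hold up to 3 in its total.

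The libraries held between 63803799 and 74925271 CpG reads, a mean of 2.96 to 3.46 reads per CpG, and 16.2% to 19.9% of the sites had no read. Reads were therefore summed over windows and regions, and a level is the percentage of observations that were methylated. Over all CpG reads the ESC libraries reached 17.9% and 18.2%, the ASC libraries 59.8% and 60.2% and the EpiSC libraries 81.0% and 80.2%. Promoters that mark the naive state were checked first. The start regions of Zfp42, Tcl1, Dppa3 and Fbxo15 lay between 0% and 13.5% in every ASC and ESC library and between 85.1% and 98.0% in the EpiSC libraries, while those of Pou5f1 and Sox2, genes of all pluripotent cells, stayed under 1% in all 6. Esrrb, the remaining naive gene of the list, stood at 11.1% and 22.5% in ESCs, against 66.7% and 75.1% in ASCs and 67.1% and 69.5% in EpiSCs. Each of these genes was represented by 1 start, that of its longest protein-coding transcript, which need not be its main promoter. The study, by contrast, names Esrrb among the genes whose promoters were demethylated in ASCs relative to EpiSCs. Whether it used the same start was not tested.

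To compare the states over the same sequence, the half-methylated stretch was first set in EpiSCs. It was the longest run of adjacent 500 bp windows around a start whose mean EpiSC level lay between 30% and 70%, with at least 1 window of 15 or more CpG sites. A single window under 20 observations in any library was passed over and did not break a run, while a longer gap of such windows ended it. Since the EpiSC libraries set the stretch, their level in it is a description, and only ASCs and ESCs were tested against each other. There were 6 such stretches, 1 each at Mest, Peg3/Usp29, Peg10/Sgce and Impact, and 2 at Plagl1, and none at Copg2. The rule uses the EpiSC level alone, and whether each stretch is a germline imprint was not tested. In ESCs all 6 stood at or under 1.23% in both libraries. In ASCs they fell into an order, with Mest highest, Plagl1 (at its downstream start) and Peg3/Usp29 next, Peg10/Sgce lower, and Impact and the stretch after the upstream Plagl1 start near the level of ESCs. The median of the 6 stretches was 30.2% in ASCs and 0.638% in ESCs.

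**Figure D1:**
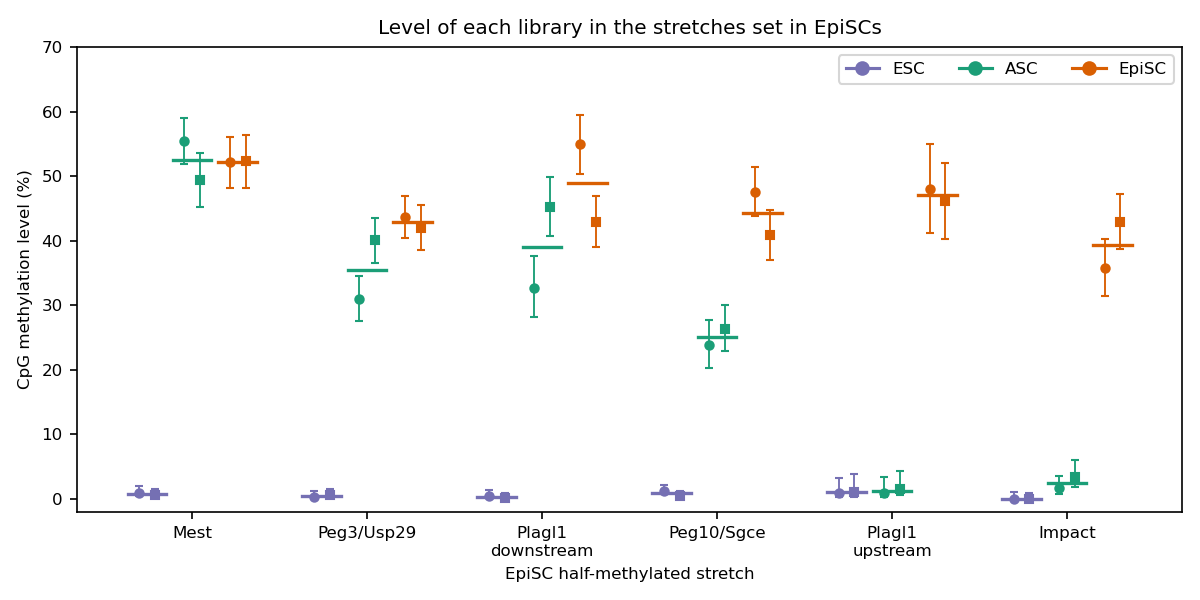
CpG methylation level in percent (vertical axis) of each library in the 6 stretches set in EpiSCs (horizontal axis). Circles are replicate 1 and squares replicate 2, horizontal bars are the means of 2 libraries, and error bars are 95% Wilson intervals of the counts. ASC libraries stand beside the EpiSC libraries at Mest (55.5% and 49.4%) and beside the ESC libraries at Impact (1.62% and 3.37%).

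At Mest the stretch covered 2.5 kb, chr6:30736550-30739049, from 1500 bp before the principal start to 999 bp after it, and held 124 CpG sites. It includes 422 bp of annotated Mest exons, 26 bp of them coding. The ASC libraries stood at 55.5% and 49.4%, the ESC libraries at 0.967% and 0.616%, and the EpiSC libraries at 52.2% and 52.3%. Both ASC values were thus far above both ESC values and enclosed the EpiSC values. The ASC mean of 52.4% ± 4.33 (SD, n = 2) exceeded that of ESCs, 0.792% ± 0.248, by 51.6 points (95% interval 47.7 to 55.6, adjusted p = 8.43e-11 by the quasi-binomial model fitted over all start regions, with limma's variance moderation). The level in ASCs was 100.4% of the level in EpiSCs. Counts per library ran from 545 to 724 observations, or 4.40 to 5.84 reads per CpG. In the window just after the start, with 47 CpG sites, the ASC libraries differed from each other, at 54.4% and 24.1%, against 48.0% and 50.6% in EpiSCs.

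The promoter shared by Peg3 and Usp29 had the longest stretch, 4.5 kb at chr7:6727078-6731577, with 147 CpG sites at a density of 32.7 per kb. The annotation places 174 bp of Peg3 exons and 1000 bp of Usp29 exons in it, none of them coding. ASC libraries stood at 30.9% and 40.03%, ESC libraries at 0.325% and 0.644%, and EpiSC libraries at 43.6% and 42.0%. All ASC values lay above those of ESCs and below those of EpiSCs. ASCs exceeded ESCs by 35.0 points (95% interval 30.9 to 39.1, adjusted p = 7.86e-09, same model). In ASCs the level was 82.8% of that in EpiSCs, from 615 to 896 observations per library.

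Plagl1 had 2 CpG-rich starts that went different ways. Around the downstream start, where 22 of its transcripts begin, the stretch covered 1.5 kb at chr10:13090332-13091831 with 95 CpG sites, and contained 372 bp of Plagl1 exons without coding bases. ASC libraries stood at 32.7% and 45.3%, ESC libraries at 0.482% and 0.161%, and EpiSC libraries at 54.9% and 42.9%. Here the ASC and EpiSC libraries overlapped, and the mean of ASCs exceeded that of ESCs by 38.7 points (95% interval 32.1 to 45.2, adjusted p = 8.03e-08). The upstream start, with 1 transcript, had a stretch of 1 kb at chr10:13060504-13061503 with 50 CpG sites. There the EpiSC libraries stood at 48.0% and 46.1%, but the ASC libraries at 0.939% and 1.51% and the ESC libraries at 0.881% and 1.09%. ASCs and ESCs differed by 0.236 points, with a 95% interval from -1.67 to 2.15 (adjusted p = 0.846). In the window just before this start, with 10 CpG sites, ESCs stood at 12.9% and 13.0%, ASCs at 48.5% and 41.5% and EpiSCs at 94.3% and 90.4%, and the call for ASCs over ESCs was passed. A start region running from 1000 bp before to 100 bp after this start gave 41.6 points for ASCs over ESCs (adjusted p = 0.000602), a call, against 8.15 points without one for 1000 bp on each side. The 2 stretches of Plagl1 rest on 379 to 622 and 183 to 271 observations per library.

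At Peg10 and Sgce the stretch covered 3 kb, chr6:4746157-4749156, with 173 CpG sites, and reached into the coding part of Sgce by 109 bp. It holds 273 bp of Peg10 exons and 228 bp of Sgce exons. The ASC libraries stood at 23.8% and 26.3%, the ESC libraries at 1.23% and 0.465%, and the EpiSC libraries at 47.6% and 40.8%. The 3 states did not overlap. ASCs exceeded ESCs by 24.2 points (95% interval 20.2 to 28.2, adjusted p = 4.60e-08), and their level was 56.6% of that in EpiSCs. Within the stretch the ASC libraries were uneven, at 9.55% and 22.2% in the window from 500 to 999 bp before the start of Sgce, which is read from the minus strand, and at 24.2% and 63.0% in the window within Sgce just after that start, whereas EpiSC windows of the stretch had means from 34.0% to 51.7%.

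At Impact the ASC libraries stood near the ESC libraries. The stretch of 1 kb, chr18:12972798-12973797, with 63 CpG sites, lies within the gene and holds no exon base. EpiSC libraries stood at 35.7% and 42.9%, ASC libraries at 1.62% and 3.37%, and ESC libraries at 0 of 370 and 0 of 424 observations, which allows up to 0.811% and 0.708%. ASCs exceeded ESCs by 2.50 points (95% interval 0.775 to 4.22, adjusted p = 0.00500), short of the 20 points required for a call. The level in ASCs was 6.35% of that in EpiSCs, against 2.60% at the upstream start of Plagl1. The next 500 bp downstream, with 46 CpG sites, were low in all 6 libraries, at most 7.77%, and a further window of 21 CpG sites returned to 57.0% and 54.5% in EpiSCs.

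Copg2 had no window between 30% and 70% in any state among its 4 tested windows. Its start region of 101 CpG sites stood at 1.24% and 2.20% in ASCs, at 1.98% and 0% of 334 observations in ESCs, which allows up to 0.898% in the latter, and at 9.73% and 12.3% in EpiSCs. The EpiSC values lay above those of the other states, and ASCs minus EpiSCs came to -9.30 points (95% interval -13.5 to -5.07, adjusted p = 0.00117, or 0.0754 with limma on M values), under the size required for a call.

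**Figure D2:**
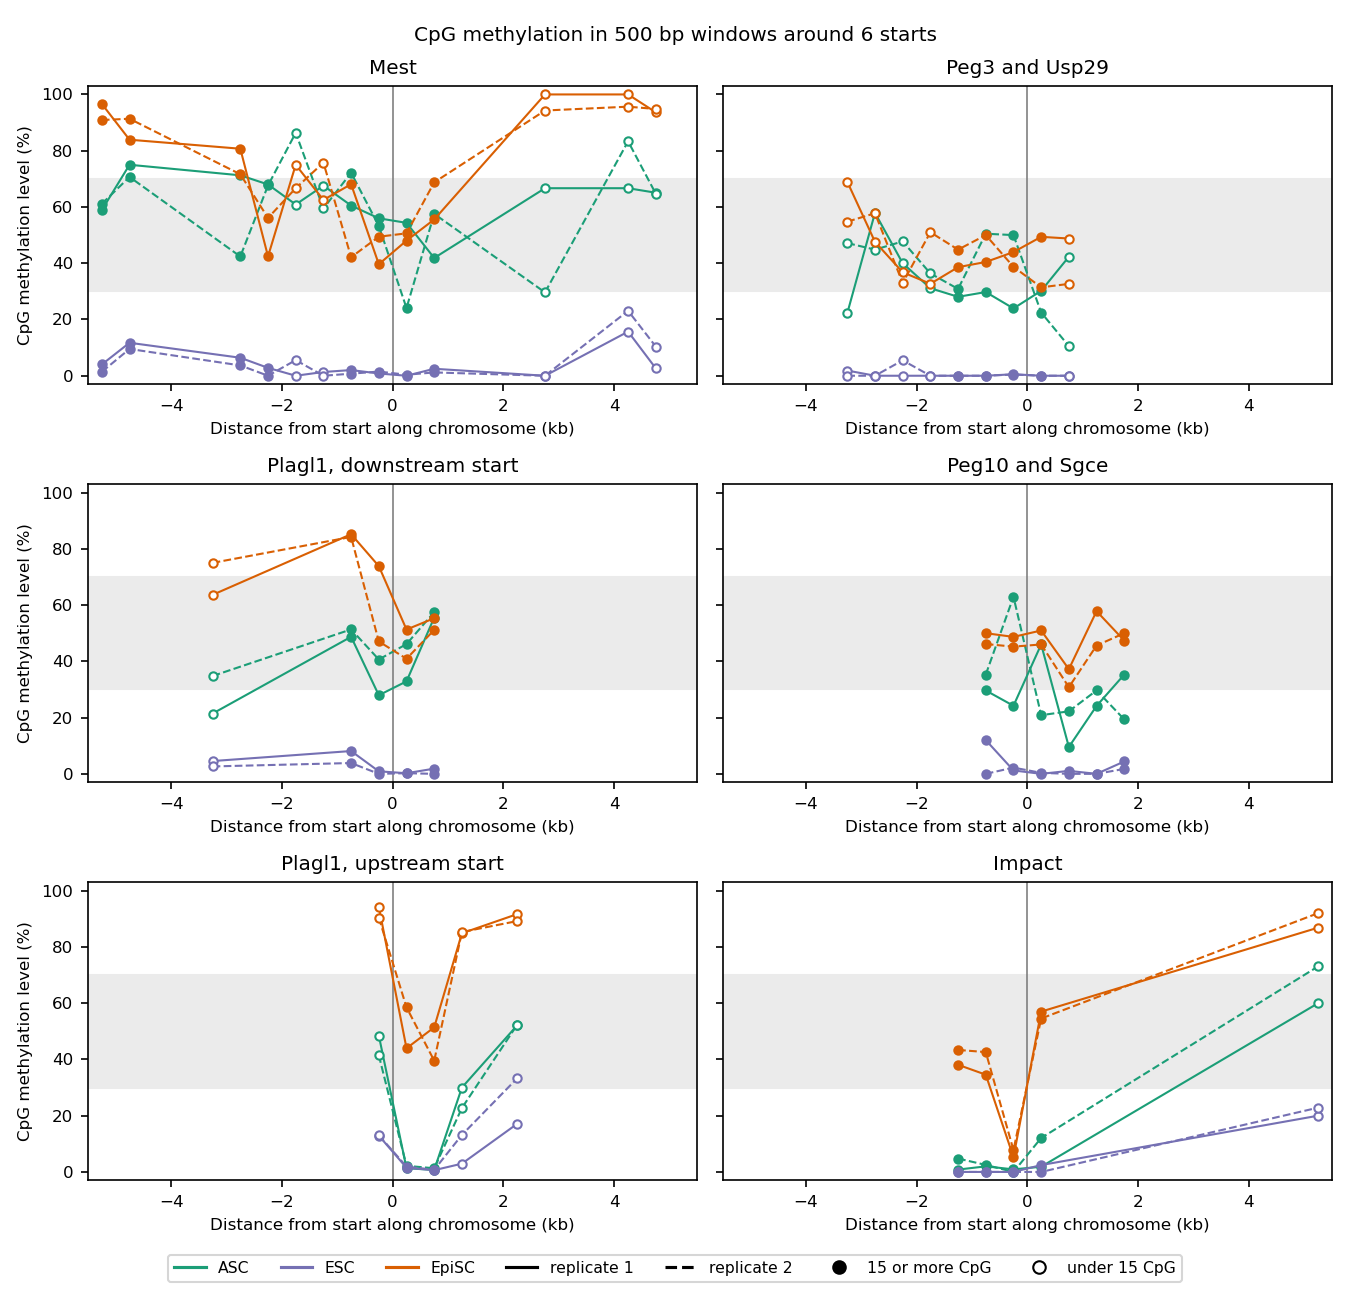
CpG methylation level in percent (vertical axis) in 500 bp windows, placed by the distance of their centre in kb from the start (horizontal axis, plus strand to the right), for the 6 starts with a half-methylated stretch. Each line is 1 library, filled points are windows with 15 or more CpG sites, the grey band runs from 30% to 70%, and windows under 20 observations in any library are not drawn. The EpiSC lines leave the band upward at the flanks at Mest and at both Plagl1 starts and downward at Impact (at most 7.77%), the ASC lines stay near it at Mest, and at Impact and the upstream start of Plagl1 the ASC lines lie on the ESC lines within the band of EpiSCs.

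The width of the half-methylated stretch was then measured in each state by itself, as the summed length of runs between 30% and 70% that hold a window of 15 or more CpG sites. It came to 14.5 kb in EpiSCs, in 8 runs, to 9 kb in ASCs, in 7 runs, and to 0 kb in ESCs. Each library by itself gave 14 kb and 14.5 kb in EpiSCs, 8.5 kb and 9.5 kb in ASCs, and 0 kb in both ESC libraries. The sums of the states did not overlap between libraries. No test was made of the lengths. They depend on the band and on the window. With a band of 20% to 80% both ASCs and EpiSCs came to 15.5 kb, so the difference between them was gone, and with windows of 1000 bp the ASC sum became 37 kb and exceeded that of EpiSCs, 22 kb.

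By locus the widths moved in different ways. At Mest the ASC sum was 4 kb and the EpiSC sum 3 kb, with the same longest run of 2.5 kb in both. Both states were in the band in the window beginning at -2500 bp from the Mest start, with an EpiSC mean of 49.3%. ASCs were also in it in the window beginning at -3000 bp, where the EpiSC mean was 76.2%, and in the 500 bp window beginning at -5500 bp, and in the latter the ASC libraries stood at 58.9% and 61.1% and the EpiSC libraries at 96.6% and 90.9%. The single ASC libraries gave 4.5 kb and 2.5 kb at Mest, so the difference from EpiSCs, 3 kb in both libraries, was smaller than their spread. At Peg3/Usp29 the ASC sum was 1.5 kb against 4.5 kb, but the second ASC library by itself reached 4 kb. Of the 1.5 kb, 0.5 kb lay at an alternative Usp29 start outside the EpiSC stretch. Within that stretch the ASC means were in the band over 3 kb of the 4.5 kb. A run of 2 kb there, at 33.7% to 51.4%, was left out of the ASC sum because no window in it had 15 CpG sites, while in EpiSCs the same windows joined a dense run and were counted. The ASC runs were separated by a window at 29.5%, beginning at -1500 bp from the Usp29 start, and the windows just after that start stood at 26.3% and 26.4%. Plagl1 had 2 kb in ASCs, all at the downstream start, and 2.5 kb in EpiSCs over both starts. Peg10/Sgce had 1.5 kb against 3 kb, with 1 kb in each ASC library and 3 kb in each EpiSC library. Impact had 0 kb in ASCs and 1.5 kb in EpiSCs in the means and in every library.

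**Figure D3:**
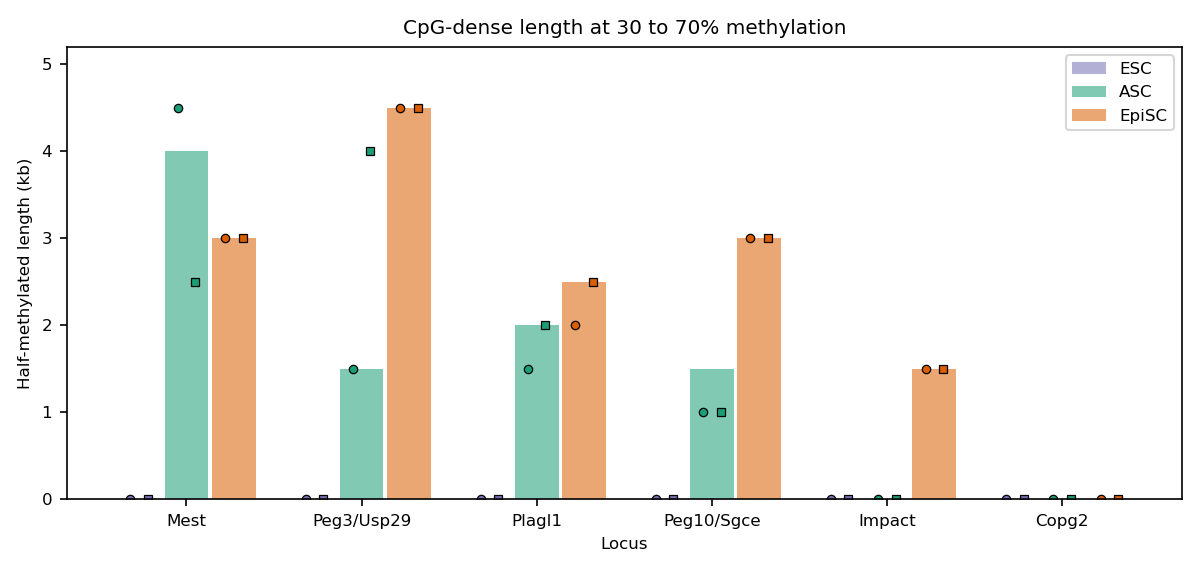
Summed length in kb (vertical axis) of CpG-dense runs between 30% and 70% methylation at each locus (horizontal axis). Bars use the mean of 2 libraries and start at 0, and circles and squares give replicates 1 and 2 by themselves. Every ESC value is 0 kb, and EpiSCs exceed ASCs at 4 of the 5 loci with a stretch, the exception being Mest.

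The band means different things in dense and sparse sequence, since ASCs were at intermediate levels in much of the sparse sequence near gene starts. Among windows at the starts of other genes with fewer than 15 CpG sites, 8.49% of EpiSC means, 9.53% of ESC means and 44.0% of ASC means lay between 30% and 70%, and the median level in ASCs was 57.1%. The 47 tested sparse windows of the 8 genes had 9 in the band in EpiSCs, 5 in ESCs and 19 in ASCs. These ASC counts stand close to the background, and runs of sparse windows alone, 1.5 kb in EpiSCs, 2.5 kb in ESCs and 10 kb in ASCs, were left out of the widths above. Of dense windows at other genes, 8.02% lay in the band in EpiSCs, 1.14% in ESCs and 7.34% in ASCs. Of the 32 dense windows of the 8 genes the band held 23 in EpiSCs, 0 in ESCs and 17 in ASCs. The combination of 30% to 70% in ASCs and in EpiSCs with under 10% in ESCs was met by 13 of these 32 windows, 5 at Mest, 3 at Plagl1, 3 at Peg10/Sgce and 2 at Peg3/Usp29, and by 70 of 46414 dense windows at other genes (0.151%).

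Single CpG sites were examined in the 6 stretches to describe the levels of the sites behind each mean. Only sites with at least 5 reads in a library were used, 14 to 33 of 50 at the upstream start of Plagl1 and 37 to 102 of 173 at Peg10/Sgce. They need not represent the whole stretch, as the mean over such sites at Peg10/Sgce was 31.2% in the second EpiSC library, against 40.8% over all observations. At Mest 87.7% and 80.9% of sites in the ASC libraries lay between 20% and 80%, as did 92.4% and 90.3% in the EpiSC libraries, while 96.5% of sites in both ESC libraries had no methylated read. At Peg3/Usp29 75.4% and 82.4% of sites were intermediate in ASCs and 93.5% and 85.4% in EpiSCs. At the downstream start of Plagl1 the ASC libraries differed, with 64.9% and 83.3% of sites intermediate and 32.4% and 3.70% without a methylated read. The EpiSC libraries had 71.7% and 86.9% of sites intermediate there, and 17.4% and 0% with every read methylated. Peg10/Sgce showed the lowest intermediate share of the 4 in ASCs, 43.2% and 46.0%, with 29.7% and 24.0% of sites without a methylated read against 0% and 7.55% in EpiSCs. At Impact 87.8% and 73.8% of ASC sites had no methylated read, against 6.82% and 3.57% in EpiSCs, and at the upstream start of Plagl1 100% and 93.8% against 10% and 9.09%. The median site had between 5 and 9 reads. At so few reads the shares also depend on the level of the stretch and on the read count. They therefore cannot tell an even level over the sites from a mixture of full and empty ones.

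**Figure D4:**
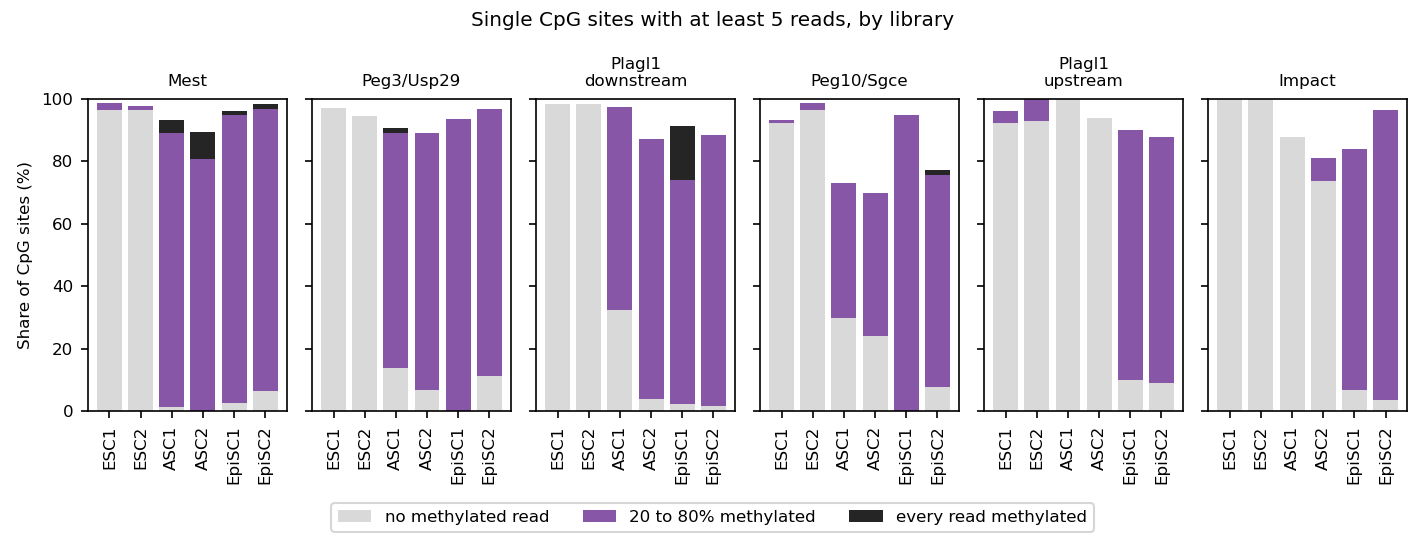
Share of CpG sites with at least 5 reads (vertical axis, percent) in the 6 stretches, for each library (horizontal axis). Grey is the share of sites without a methylated read, purple the share between 20% and 80%, black the share with every read methylated, and the white remainder holds the other sites. At Mest most of the ASC bars is purple (87.7% and 80.9%), as it is in EpiSCs (92.4% and 90.3%), and at Impact most of the ASC bars is grey (87.8% and 73.8%).

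Start regions, 1000 bp to each side of a start, allowed a test of every pair of states that did not use the stretches. Of the 26 starts, 23 had at least 40 observations in every library. Calls needed a difference of 20 points or more together with an adjusted p under 0.05. Against ESCs, 18 of the 23 were called higher in ASCs (22.6% of the 17578 start regions tested) and 22 were called higher in EpiSCs (39.2% of all). Between ASCs and EpiSCs, 15 were called lower in ASCs (27.2% of all) and 0 higher (0.131% of all). At an unadjusted p under 0.05 also 0 of the 23 were higher in ASCs, as with limma on M values and with Fisher's exact test. The median difference of the 23 was 36.1 points for ASCs over ESCs and -22.6 points for ASCs minus EpiSCs, against 2.79 and -7.61 over all start regions. The starts of Peg3 and Usp29 overlap, as do those of Peg10 and Sgce, so the counts are not of separate places. The 8 genes entered with all their joined starts, many of them alternative starts, and other genes with 1 start each. Regions with 50 or more CpG sites made up 9 of the 23, against 12490 of 17555 at other genes. The shares and medians over all start regions thus come from a set richer in CpG-dense starts. The 3 starts under 40 observations were 1 each of Peg3, Usp29 and Sgce, and stood over 90% in all EpiSC libraries.

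CpG content divided these starts. The 9 with 50 or more CpG sites had 66 to 128 sites and included every gene. In EpiSCs 8 of them lay between 30% and 70% and none above, in ASCs 4 lay in that range, and in ESCs the highest mean was 4.79%. The 14 starts with fewer sites are mostly alternative starts within the genes, and 11 of them lay over 70% in EpiSCs, while ASC means ranged from 5.99% to 78.3%. At the alternative Mest start 30731968, for example, ASC libraries stood at 62.4% and 64.3%, ESC libraries at 10.3% and 8.33%, and EpiSC libraries at 96.8% and 92.7%. The 3 starts with few CpG sites that were half-methylated in EpiSCs were an Sgce start at 4740207, with 50.6% and 48.0%, and Impact starts at 12955852 and 12971923, with 40.4% and 43.5% and with 54.2% and 49.1%. In ASCs these Impact starts stood at 7.69% and 4.29% and at 16.3% and 6.54%, and the Sgce start at 22.2% and 31.2%.

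The CpG-rich starts themselves were ordered in ASCs as Mest, with 50.9% ± 4.47 (SD, n = 2), Plagl1 at its downstream start with 40.8% ± 7.54, Usp29 with 34.5% ± 7.68, Peg3 with 34.2% ± 7.46, Sgce with 24.2% ± 2.22, Peg10 with 24.2% ± 1.997, Plagl1 at its upstream start with 12.9% ± 0.960, Impact with 2.29% ± 0.857 and Copg2 with 1.72% ± 0.678. The libraries of Plagl1, Usp29 and Peg3 overlapped, as did those of Sgce and Peg10 and those of Impact and Copg2. ASCs and EpiSCs were not called different at Mest, with a difference of 0.870 points (95% interval -5.05 to 6.79, adjusted p = 0.675), nor at Usp29, with -7.31 points (95% interval -14.7 to 0.0781, adjusted p = 0.0829). At Peg3 the difference of -8.90 points had an adjusted p of 0.0247 and at the downstream start of Plagl1 that of -10.2 points one of 0.0484, both under the required size. With the region from 1000 bp before to 100 bp after, the latter became -29.3 points (adjusted p = 0.0112) and was called lower in ASCs. These 3 differences moved with the library left out, between -1.88 and -12.7 points at Usp29, -3.63 and -14.2 at Peg3 and -4.53 and -15.8 at the downstream start of Plagl1. Peg10, at -16.9 points (95% interval -22.8 to -11.0, adjusted p = 8.41e-05), and Sgce, at -17.0 points (adjusted p = 0.000129), also stayed short of 20 points, and limma on M values gave adjusted p = 0.0858 and 0.101 for them. Impact was called lower in ASCs, at -30.6 points (adjusted p = 3.36e-09), and so was the upstream start of Plagl1, at -43.0 points (adjusted p = 2.71e-08).

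**Figure D5:**
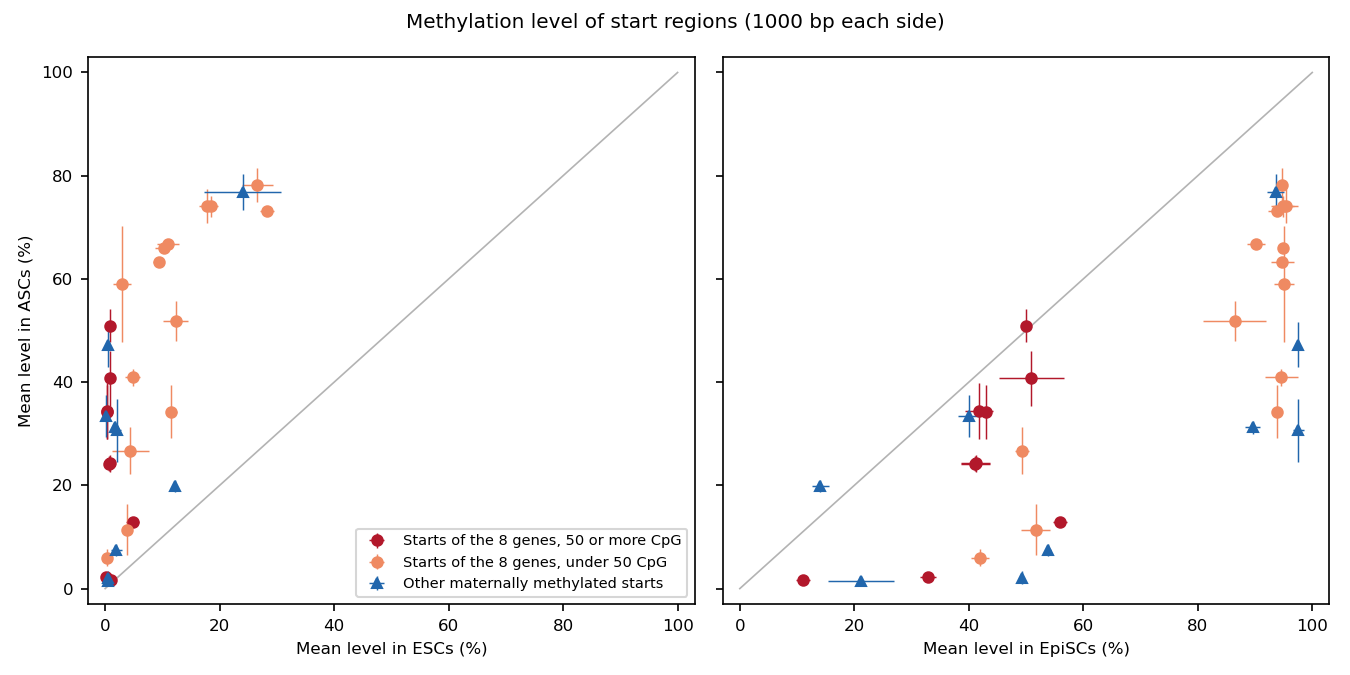
Mean methylation level in percent of start regions in ASCs (vertical axes) against ESCs (left) and EpiSCs (right). Bars span the 2 libraries of each state, and the line marks equal levels. Colours give the 23 tested starts of the 8 genes by CpG content and 9 starts of genes named for other maternal imprints. Whether these 9 lie in the imprinted regions was not tested. All 23 starts lie above the line against ESCs, and against EpiSCs only the principal Mest start of the 23 lies on it (50.9% and 50.1%), while Kcnq1ot1, Nnat and Nap1l5 lie far below it.

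Windows gave the same comparison at finer scale, with 79 of the 356 windows holding at least 20 observations in every library. Of these, 63 passed the call for ASCs over ESCs (49.8% of 130783 windows tested) and 76 that for EpiSCs over ESCs (69.9% of all). ASCs were called lower than EpiSCs in 33 (51.1% of all) and higher in 0 (0.333% of all), with 1 window higher at an unadjusted p under 0.05 and 0 with limma or Fisher's exact test. The count of 33 became 9 without the first EpiSC library and 12 without the second. In the 32 dense windows the calls were 22 for ASCs over ESCs (10.5% of 46446 dense windows), 29 for EpiSCs over ESCs (28.1%) and 10 for ASCs below EpiSCs (24.7%). The 10 comprised 3 windows at Impact, 3 at Plagl1, 2 at an alternative Usp29 start, 1 upstream of Mest and 1 at Peg10/Sgce, the last at 24.1% and 29.7% in ASCs and 57.8% and 45.6% in EpiSCs. At Mest all 25 tested windows were called for ASCs over ESCs and 9 for ASCs below EpiSCs. EpiSC levels chose the windows of the stretches, so the place of the ASC against EpiSC calls relative to a stretch is not a result.

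The TGCCGC hexamer was counted on both strands of the stretches. Mest held 12 in 2.5 kb (4.80 per kb), Impact 5 in 1 kb (5 per kb), the downstream start of Plagl1 6 in 1.5 kb (4 per kb), Peg3/Usp29 8 in 4.5 kb (1.78 per kb), Peg10/Sgce 3 in 3 kb (1 per kb) and the upstream start of Plagl1 0 in 1 kb. Impact and the upstream start of Plagl1 were the 2 stretches low in ASCs. Whether hexamer density goes with the ASC level was not tested. The hexamer occurred in 16 of the 32 dense windows of the 8 genes (50%) and in 29.3% of 46414 dense windows at other genes, and in 15.4% of all windows. Of the 13 dense windows of the 8 genes that were half-methylated in ASCs and EpiSCs and under 10% in ESCs, 9 held it (69.2%). A match is a description of the sequence and not a measured binding site.

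Other maternally methylated imprints and neighbouring genes put these levels in context. Each of 10 genes named for other maternal imprints was represented by 1 start, that of its longest transcript, with protein-coding transcripts first. That start need not be the imprinted promoter, and whether it lies in the imprinted region was not tested. Of the 10, 9 had a start region that could be tested, with 5 calls for ASCs over ESCs (22.6% of all start regions), 8 for EpiSCs over ESCs (39.2% of all) and 5 for ASCs below EpiSCs (27.2% of all). Nespas resembled Mest and Peg3, with ESCs at 0% and 0.326%, ASCs at 37.5% and 29.4% and EpiSCs at 38.1% and 41.8%. Zrsr1, at 2.15% ± 1.75 in ASCs and 49.2% ± 0.173 in EpiSCs (SD, n = 2), and Mcts2, at 7.47% ± 1.69 and 53.9% ± 0.786, stood like Impact. A further set, Kcnq1ot1, Nnat and Nap1l5, was intermediate in ASCs, with means of 47.3%, 31.2% and 30.6%, but at 97.4%, 89.6% and 97.5% in EpiSCs. The remaining 3 tested, named after their values were seen, were Airn, at 76.8% and 93.6%, Grb10, at 1.39% and 21.2%, and Inpp5f, at 19.9% and 14.0% in ASCs and EpiSCs. Among the 9 starts used, that of Inpp5f was the exception in direction, with ASCs above EpiSCs by 5.83 points (95% interval 0.612 to 11.04, adjusted p = 0.0336), under the size of a call. Of 23 tested neighbours of the 8 genes, 11 were called for ASCs over ESCs and 9 for ASCs below EpiSCs, beside the same 22.6% and 27.2% of all. Between 30% and 70% lay 6 in ASCs (Cpa5, Tsga13, Zim3, Zfp264, Tfpi2 and Hrh4) and 0 in EpiSCs, beside 2597 and 1893 of all 17578 start regions. The regions of Zim3 and Zfp264 overlap, so these are not all separate places. The largest differences among neighbours were those of Cabyr beside Impact, at 11.8% in ASCs and 90.3% in EpiSCs, of Asb4, Pon3 and Tfpi2 beside Peg10, at 25.2%, 29.3% and 37.7% against 83.7%, 86.1% and 88.0%, and of Zim3 and Zfp264 beside Peg3, at 49.9% and 54.3% against 94.0% and 92.5%.

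Among 11 genes of imprint maintenance and DNA methylation, 1 start was called for ASCs over ESCs and 2 for ASCs below EpiSCs, no more than the 22.6% and 27.2% of all start regions. The called genes were Dnmt3l, the cofactor of de novo methylation, at 19.1% ± 0.292 in ESCs, 46.4% ± 5.88 in ASCs and 91.9% ± 2.69 in EpiSCs, and Dppa3, which guards maternal marks in the zygote, at 1.34% ± 0.756, 13.2% ± 0.422 and 98.0% ± 0.0786 (SD, n = 2). Start regions with 50 or more CpG sites that were half-methylated in both ASCs and EpiSCs and under 10% in ESCs numbered 4 of 9 among the 8 genes, namely Mest, Peg3, Usp29 and the downstream start of Plagl1, and 25 of 12490 at other genes (0.200%), Nespas among them.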

How the data were processed

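Bisulfite libraries of the whole genome, made by post-bisulfite adaptor tagging, were available with 2 libraries for each of ASCs, ESCs and EpiSCs. Per the labels and the study's methods, the authors trimmed reads with Trim Galore, aligned them to GRCm38 (mm10) with Bismark 0.16.3 and summed both strands of each CpG with MethPipe (version not given in the sources used here). Each deposited table gives a fraction methylated (0 to 1) per CpG, and beside it the authors' raw count of covering reads. Methylated counts were recovered as their product, which missed whole numbers by at most 0.000115. Replicates were not pooled in the tables. Depth was 63803799 to 74925271 CpG reads per library. The 95% Wilson interval around 50% runs from 29.9% to 70.1% at 20 observations and from 35.2% to 64.8% at 40. Intervals and upper limits (3 counts over the total) cover counting error only, and CpG sites on 1 read are not independent.

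Reads were summed over 500 bp windows (at least 20 observations in every library) and over 1000 bp on each side of a start (at least 40, the minimum of the study). Levels were compared by a quasi-binomial model with group as its term, fitted over the windows or start regions of all protein-coding genes and the listed imprinted transcripts, with dispersions moderated by limma 3.58.1 in R 4.3.3, held at 1 or more, and tested by F statistics. P-values were adjusted by Benjamini-Hochberg over all of them. A call needed an adjusted p under 0.05 and a difference of 20 points. The stretches were tested in the start region fit. In a test on simulated data for ASCs against ESCs over 130783 windows, 91% of shifts of 30 points and 100% of shifts of 50 points were recovered, with 10 false calls among 64551 unchanged windows. The shifted and the unchanged windows were all taken from those under 30% in both ASCs and ESCs. These rates therefore do not cover windows at higher levels or the comparisons with EpiSCs. Mean squared differences between replicates were 1.43 to 1.50 times those of binomial sampling of independent observations, and all 6 libraries were kept as separate samples.

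The genes and lists were chosen with earlier results of these data known. The 8 genes were always named, and of each list up to 6 genes by the size of the difference where ASCs and EpiSCs were called different or ASCs stood between 30% and 70%. The genome sequence was that of GRCm38.p6. Spike-in reads were not analysed here. Alternatives were other observation minimums, differences, windows, bands and region limits, limma on M values, Fisher's exact test, a replicate block and each library left out.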

Additional observations from a re-analysis of the deposited data

How the results depend on the processing

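Counts of windows and start regions moved with how many could be tested and with the libraries used. For the alternatives in this section the shares over all windows or start regions are not given. The counts alone therefore cannot separate weaker calls from fewer windows or regions tested. With a minimum of 10 observations, 123 windows were called for ASCs over ESCs, 147 for EpiSCs over ESCs and 62 for ASCs below EpiSCs, and with a minimum of 40 these were 24, 31 and 12. Requiring 40 points gave 41 for ASCs over ESCs and 15 for ASCs below EpiSCs. Leaving out 1 library gave 49 to 58, 76 to 82 and 9 to 32 windows, the lowest without the first EpiSC library. Start regions of 500 bp on each side gave 7, 11 and 4 calls in the same 3 comparisons, those from 1000 bp before to 100 bp after gave 10, 12 and 6, and a minimum of 100 observations gave 9, 11 and 5. Leaving out 1 library gave 16 to 19, 22 to 23 and 12 to 15 start regions. The count of windows or starts higher in ASCs than in EpiSCs stayed at 0 under every alternative run.

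The half-methylated length was the value most open to its definition. In ASCs (9 kb) it was 15.5 kb for a band of 20% to 80%, 4 kb for 40% to 60%, 4.5 kb with windows of 250 bp, 37 kb with windows of 1000 bp, 12.5 kb with windows moved by 250 bp, and 12 kb and 7 kb with minimums of 10 and 40. In EpiSCs (14.5 kb) the same settings gave 15.5 kb, 10.5 kb, 7.75 kb, 22 kb, 15.5 kb, 16.5 kb and 11 kb. In ESCs (0 kb) 1000 bp windows gave 2 kb. Windows of 1000 bp reach 15 CpG sites in sparser sequence by construction. With the band of 20% to 80% ASCs and EpiSCs were equal. Single libraries gave 8.5 to 9.5 kb in ASCs, 14 to 14.5 kb in EpiSCs and 0 kb in ESCs. The median stretch level ranged from 27.3% to 33.1% (ASCs) and from 0.541% to 0.682% (ESCs) with 1 library left out.

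Differences near 0 changed sign in 5 cases without a call. ASCs minus EpiSCs at the principal Mest start became -1.75 points with 500 bp on each side and -2.29 without the first ASC library. ASCs minus ESCs at Copg2 became -0.387 with 500 bp and -0.257 without the second ESC library, and at the upstream Plagl1 stretch -0.0480 without the second ASC library. With 1 library left out these differences reached up to 4.03, 1.72 and 0.521 points. Regions from 1000 bp before to 100 bp after added calls at Plagl1, for ASCs over ESCs at the upstream start (41.6 points, adjusted p = 0.000602) and for ASCs below EpiSCs at the downstream start (-29.3 points, adjusted p = 0.0112). With limma on M values, adjusted p for ASCs minus EpiSCs rose to 0.316 at Peg3 and 0.408 at the downstream Plagl1 start, and past 0.05 at the CpG-rich Peg10, Sgce and Copg2 starts (0.0858, 0.101 and 0.0754), none of them called. The Sgce start at 4740207 lost its call between ASCs and EpiSCs with limma on M values (-22.6 points as before, adjusted p = 0.140), without the first ASC library (-18.1 points) and without the first EpiSC library (-21.3 points, adjusted p = 0.0533), and that between ASCs and ESCs without the second ASC or the first ESC library (17.8 and 19.1 points).

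Replicate numbers showed no sign of pairing the samples. Deviations of same-numbered libraries from their group means correlated at 0.00164 (ASC and ESC), -0.00362 (ASC and EpiSC) and -0.00510 (ESC and EpiSC) over 130783 windows. Counting error is part of these deviations, so a weak pairing could go unseen. With the replicate number as a block, 61, 76 and 29 windows and 18, 22 and 15 start regions were called in the 3 comparisons. Depth limited the tests to summed regions, and 277 of 356 windows were under 20 observations in some library.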
